A study of Caenorhabditis elegans with 3 samples.

Results

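The 54 genes described here encode subunits of the proteasome and ubiquitin-conjugating enzymes of Caenorhabditis elegans. Membership follows from the gene symbol, although the group was picked with earlier results of these data known. The members are the nuclear protein-coding genes of the WBcel235 annotation whose symbols begin with pas-, pbs-, rpn-, rpt- or ubc- and a digit, and they are 54 of the 19973 nuclear protein-coding genes. Of the 54, 33 are proteasome genes (7 pas-, 7 pbs-, 13 rpn- and 6 rpt-) and 21 are ubc- genes. The data are chromatin immunoprecipitation and sequencing (ChIP-seq) peak lists for ELT-3, a transcription factor of the GATA family that acts in the epidermis. Chromatin came from whole L1 larvae, male and female pooled, of strain OP75, genotype unc-119(ed3) III; wgIs75. This single transgenic strain carries ELT-3 with a GFP-FLAG tag at its C terminus. All 3 libraries belong to 1 group with 2 biological replicates. Replicate 2 has 2 technical libraries and was counted as 1 sample. No untagged strain, elt-3 mutant or input library was analysed here, and the promoter that drives the transgene is not given in the sources used here. Whole larvae give binding summed over all tissues, so the cell type behind a peak is not known.

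The proteasome degrades proteins that carry ubiquitin chains. Its core particle is a barrel of alpha rings (pas- genes), which gate the entrance, and beta rings (pbs- genes), which hold the proteolytic sites. Its regulatory particle consists of a ring of AAA ATPases that unfold substrates (rpt- genes) and of non-ATPase subunits that receive substrates and remove their ubiquitin (rpn- genes). Ubiquitin-conjugating enzymes (ubc- genes) take activated ubiquitin, or a related modifier, and pass it to substrates together with a ligase. In C. elegans, proteasome subunit genes are known targets of SKN-1A, a stress factor that acts when the proteasome is impaired. GATA factors bind the core sequence GATA, and the forms searched for here were AGATAA and AGATAG together with the pair that begins with T in place of A, which is TGATAA and also TGATAG. A match to any of these on either strand, overlapping matches included, is called a GATA word below.

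The main set of peaks was the list of 1202 peaks that passed the authors' filter on the irreproducible discovery rate (IDR). These 1202 peaks are the 1202 strongest of the 10082 in the pooled list, which also holds weak entries, with q-values up to 0.961. Each peak has a signal, a value of the authors' own that is used here only to describe and rank peaks within a list. Peaks were up to 296 bp wide and the summit was the middle of the peak in 1195 of the 1202, so a summit position is mostly a peak centre. The promoter window of a gene runs from 1000 bp before its 5′ end to 200 bp after it, and bound genes are those with a summit in the window. Positions upstream of a 5′ end are negative. The lists hold no read counts, and the depth of the libraries is unknown. The replicates differed: the list of replicate 1 has 10775 peaks and that of replicate 2 has 4080, on another signal scale and 596 bp wide, and replicate 2 peaks overlapped 50 of the 530 IDR peaks with a promoter summit. Results are therefore also given for each replicate alone. All coordinates are 1-based WBcel235 (ce11) positions, intervals are exact 95% Clopper-Pearson intervals, and they cover counting error only.

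The IDR peaks of pbs-1 and rpn-3 are shown whole, since both hold no GATA word and both lie between a proteasome gene and a gene on the other strand. They are written 5′ to 3′ on the strand of the proteasome gene, from the RefSeq WBcel235 genome. Capitals mark ATCAT or GTCAT on either strand, the core of the site that SKN-1 binds in C. elegans, with overlapping matches merged. The pbs-1 peak is IV:1709789-1710084, minus strand, and the rpn-3 peak is III:8447025-8447320, plus strand.
pbs-1: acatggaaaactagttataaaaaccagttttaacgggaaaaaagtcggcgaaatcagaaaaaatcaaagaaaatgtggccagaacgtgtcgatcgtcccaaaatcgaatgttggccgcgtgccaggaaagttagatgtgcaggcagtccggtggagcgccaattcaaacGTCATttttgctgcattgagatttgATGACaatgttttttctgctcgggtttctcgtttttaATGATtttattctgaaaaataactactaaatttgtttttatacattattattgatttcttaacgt
rpn-3: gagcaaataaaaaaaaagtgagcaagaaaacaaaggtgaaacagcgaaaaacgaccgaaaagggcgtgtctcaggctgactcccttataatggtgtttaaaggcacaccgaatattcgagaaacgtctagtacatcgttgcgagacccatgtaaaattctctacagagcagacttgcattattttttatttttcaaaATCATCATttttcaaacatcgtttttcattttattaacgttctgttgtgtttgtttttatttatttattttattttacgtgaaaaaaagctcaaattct

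For contrast, 3 sequences from weaker peaks of the pooled list do hold GATA words, in capitals. ATCAT or GTCAT is not capitalised in them, although rpn-2 holds 3 matches and rpt-1 holds 1, while ubc-7 holds 0. The q-values of these peaks were 0.192 for rpt-1, 0.683 for ubc-7 and 0.0494 for rpn-2. The rpt-1 sequence (V:11982467-11982567, minus strand) and the ubc-7 sequence (III:9631412-9631512, minus strand) are the 50 bp on each side of a summit. The rpn-2 sequence (III:6198687-6198982, plus strand) is a whole peak, which has 2 GATA words, neither within 50 bp of the summit.
rpt-1: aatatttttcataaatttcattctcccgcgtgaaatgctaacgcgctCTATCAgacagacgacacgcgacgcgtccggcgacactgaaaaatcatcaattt
ubc-7: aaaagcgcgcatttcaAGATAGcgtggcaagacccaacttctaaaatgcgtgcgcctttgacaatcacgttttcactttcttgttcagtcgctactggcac
rpn-2: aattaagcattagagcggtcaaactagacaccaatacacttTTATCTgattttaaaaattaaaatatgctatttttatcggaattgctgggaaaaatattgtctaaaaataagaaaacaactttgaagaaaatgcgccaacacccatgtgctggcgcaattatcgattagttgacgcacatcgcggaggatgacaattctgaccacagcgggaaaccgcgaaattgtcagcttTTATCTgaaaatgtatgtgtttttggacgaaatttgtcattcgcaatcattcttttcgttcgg

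In the IDR list 5 of the 54 genes were bound (9.26%, interval 3.08 to 20.3), namely rpn-3, ubc-25, pbs-1, pbs-3 and ubc-3. Over all protein-coding genes 3.44% were bound, and over the 19919 genes outside the group 683 were bound (3.43%). The ratio of the members' share to that of the other genes was 2.70, and the lower bound of the members' interval lies below the background share. The proteasome and the ubc- genes had similar shares, with 3 of 33 (9.09%) and 2 of 21 (9.52%). The 5 genes lay on chromosomes I (2 genes), II, III and IV. None of the 6 members on V and the 4 on X, all 4 of them ubc- genes, had an IDR summit.

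The strongest peak of the group belonged to rpn-3, a subunit of the lid of the regulatory particle. Its signal of 79.4 ranked 130 of 1202, and its summit lay 180 bp upstream of the 5′ end, between genes. The same summit lay at -264 bp from hsp-110, a chaperone gene on the other strand, so that the peak was in both promoter windows and somewhat nearer to rpn-3. An annotated non-coding gene, C30C11.14, also had the summit in its window and overlaps the peak with an exon. rpn-3 stood apart from the other 4 bound members, whose signals ran from 38.4 to 47.7.

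The beta ring genes were bound at 2 of 7 (28.6%, interval 3.67 to 71.0), beside 3.44% of all protein-coding genes, and so few genes say little about the class. pbs-1, which encodes a catalytic beta subunit, had a peak with a signal of 46.4 (rank 663) whose summit lay between genes, at -192 bp from pbs-1 and -328 bp from K08D12.3 on the other strand. pbs-3, a beta subunit without a catalytic role, had a peak at II:4955450-4955745 with a signal of 45.6 (rank 695), 171 bp upstream. That pbs-3 summit lay in an exon, in the 3′ untranslated region of ulp-2, which ends 22 bp before pbs-3 on the same strand and encodes a SUMO protease. Its summit was in the promoter window of no other protein-coding gene. The q-value was 0.000484 for both beta ring peaks and for the peaks of rpn-3 and ubc-25, the smallest value in the list. Peaks of middle rank hold this value too, as that of pbs-3 at rank 695 of 1202 shows, so it does not set them apart.

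Among the ubiquitin-conjugating enzymes, ubc-25 had a peak at I:10562496-10562791 with a signal of 47.7 (rank 614) and a summit 326 bp upstream, between genes. ubc-3, the counterpart of yeast Cdc34, which works with cullin ligases, had the weakest of the 5 peaks, at I:1697952-1698247, with a signal of 38.4 (rank 1042, q = 0.00144), 249 bp upstream and between genes. Neither summit was shared with another protein-coding gene. The median signal of the 5 peaks was 46.4, and that of the other 525 promoter summits of the list was 48.5. The median position was -192 bp for the members and -224 bp for the others.

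**Figure D1:**
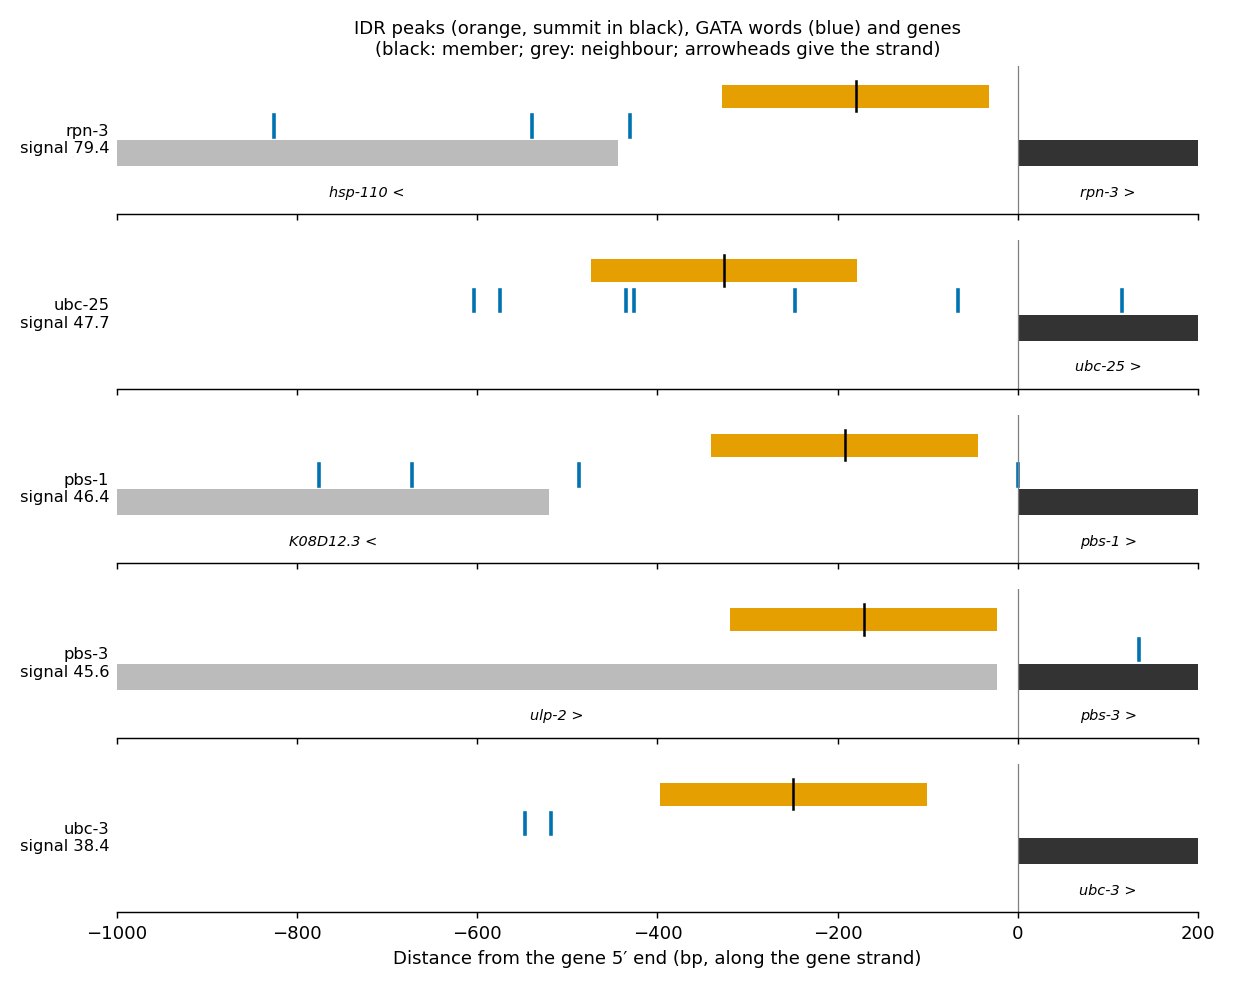
The 5 genes with an IDR summit, drawn along the strand of each gene, with the distance from its 5′ end in bp on the x axis. Orange bars are the peaks, black ticks their summits, blue ticks the GATA words, black boxes the gene itself and grey boxes other protein-coding genes. No blue tick lies under the rpn-3, pbs-1, pbs-3 or ubc-3 peak, while 3 lie under that of ubc-25, away from its summit.

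The GATA word was absent from the centre of all 5 IDR peaks. It lay within 50 bp of the summit in 0 of 5 (interval up to 52.2%), against 150 of the 525 other promoter summits (28.6%). Over whole peaks 1 of 5 had a match, against 285 of 525 (54.3%). The 1 peak was that of ubc-25, which held 3 GATA words, of which 1 lay within 100 bp of the summit. The promoter windows themselves did not lack the word: they held 4 in pbs-1, 1 in pbs-3, 3 in rpn-3, 7 in ubc-25 and 2 in ubc-3. In rpn-3 the nearest word ended at -428 bp, outside the peak, and the only one of pbs-3 lay downstream of the 5′ end, from 132 to 137 bp. Over all 54 members 51 windows held at least 1 GATA word (94.4%), against 93.3% of all promoter windows, with a median of 3 words in both. The 3 members without one, pas-6, pbs-5 and ubc-19, had no summit in either list. The window from 250 bp before to 50 bp after the 5′ end is about as long as a whole peak. In it a GATA word occurred in 29 of 54 members (53.7%) and in 54.6% of all genes, bound or not. The share in the other whole IDR peaks, 54.3%, was thus close to that of promoters in general.

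Over all promoters the words ATCAT and GTCAT were more frequent than the longer GATA word. The searches differ in word length and in the number of words, and the cause of this difference was not tested. All 54 windows held at least 1, as did 98.9% of all windows, and the median was 5 in both. In the short window from 250 bp before to 50 bp after the 5′ end, they occurred in 46 of 54 members (85.2%), against 72.2% of all genes. The share was 29 of 33 for the proteasome genes (87.9%) and 17 of 21 for the ubc- genes (81.0%). Within 50 bp of the summit they occurred in 1 of the 5 IDR peaks, that of pbs-1, against 33.9% of the other promoter summits. Over whole peaks the order was the other way, with 4 of 5 (80.0%) against 67.2%. In the pooled list, 4 of the 21 member summits had a GATA word within 50 bp (19.0%), against 28.1% of the other promoter summits, at rpt-1 (both summits), ubc-7 and rpn-9. Over whole pooled peaks it was 8 of 21 (38.1%), against 55.4%. ATCAT or GTCAT lay within 50 bp of the summit in 10 of 21 (47.6%), against 36.2%, and anywhere in the peak in 18 of 21 (85.7%), against 71.3%. These are matches of letters, and whether SKN-1 was at any of these places was not measured.

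In the pooled list 19 of the 54 genes had a promoter summit (35.2%, interval 22.7 to 49.4), against 17.9% of all protein-coding genes and 17.8% of the others. The ratio of the shares was 1.98. The proteasome genes had a higher share (14 of 33, 42.4%) than the ubc- genes (5 of 21, 23.8%), with intervals that overlap (25.5 to 60.8 and 8.22 to 47.2). Within the proteasome 4 of 7 pbs-, 6 of 13 rpn- and 3 of 6 rpt- genes had a summit, but 1 of 7 pas- genes. The interval of the alpha ring share (0.361 to 57.9) includes the shares of the other 3 classes, so the classes were not distinguishable at these numbers. In 2 genes, rpt-1 and rpn-5, there were 2 pooled summits in the window.

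**Figure D2:**
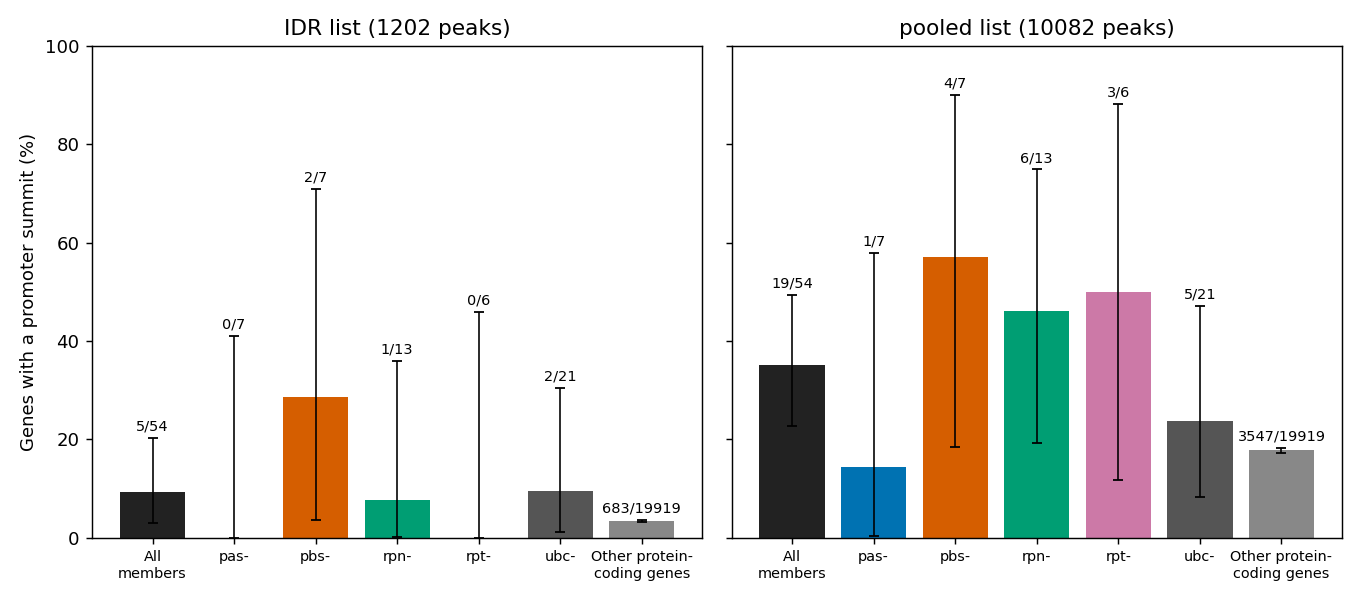
Share of genes with a summit in the promoter window, in percent, for all 54 members, for the 5 symbol classes and for the other protein-coding genes, in the IDR list (left) and the pooled list (right). Bars are shares, lines exact 95% intervals, and the fractions above give the counts. The members' bars stand at 9.26% and 35.2%, those of the other genes at 3.43% and 17.8%, and the intervals of single classes are wide.

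The 14 members that had a pooled but no IDR summit were 11 proteasome and 3 ubc- genes. The strongest was pas-4, the only alpha ring gene with a peak, with a signal of 34.1 at rank 1307, below the lowest IDR signal of 35.5. Its summit lay at -161 bp from pas-4 and nearer, at -116 bp, to rpb-3, which encodes a subunit of RNA polymerase II on the other strand, and within an exon of the non-coding gene C36B1.16. rpn-11, the deubiquitinating enzyme of the lid, followed with a signal of 32.0 and a summit 37 bp upstream. ubc-6 had a signal of 29.9, 213 bp upstream, at a place it shares with aka-1.

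The beta ring gene pbs-7 had a signal of 28.9 at 119 bp upstream and shared the summit with F39H11.1. rpn-2, a scaffold of the base of the regulatory particle, had a signal of 28.3 at 349 bp upstream, at a place it shares with C23G10.7. The q-values of pas-4, rpn-11, ubc-6, pbs-7 and rpn-2 ran from 0.00727 to 0.0494, so that 10 members had a pooled summit with a q-value of 0.05 or less (18.5%), against 5.30% of all protein-coding genes.

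The remaining pooled summits had larger q-values, from 0.0829 to 0.952. They included the lid gene rpn-5 (signal 26.6, 14 bp upstream, a summit shared with the cohesin gene scc-1) and the ATPase gene rpt-1 (signal 23.7, 120 bp upstream). pbs-2, a catalytic beta subunit, had a signal of 22.7 and shared its summit with the translation factor gene eif-6. rpt-6 (signal 20.9) and rpn-8 (signal 20.1, shared with mrps-6, a mitochondrial ribosomal protein gene) came next, followed by ubc-9, the conjugating enzyme of SUMO, with a signal of 19.0 at 75 bp upstream. The weakest were ubc-7 (17.9), rpt-2 (16.2, shared with aps-1) and rpn-9 (16.1, shared with T06D8.9 and nearer to the 5′ end of T06D8.9). The second summits of rpt-1 and rpn-5 had signals of 17.2 and 14.9.

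**Figure D3:**
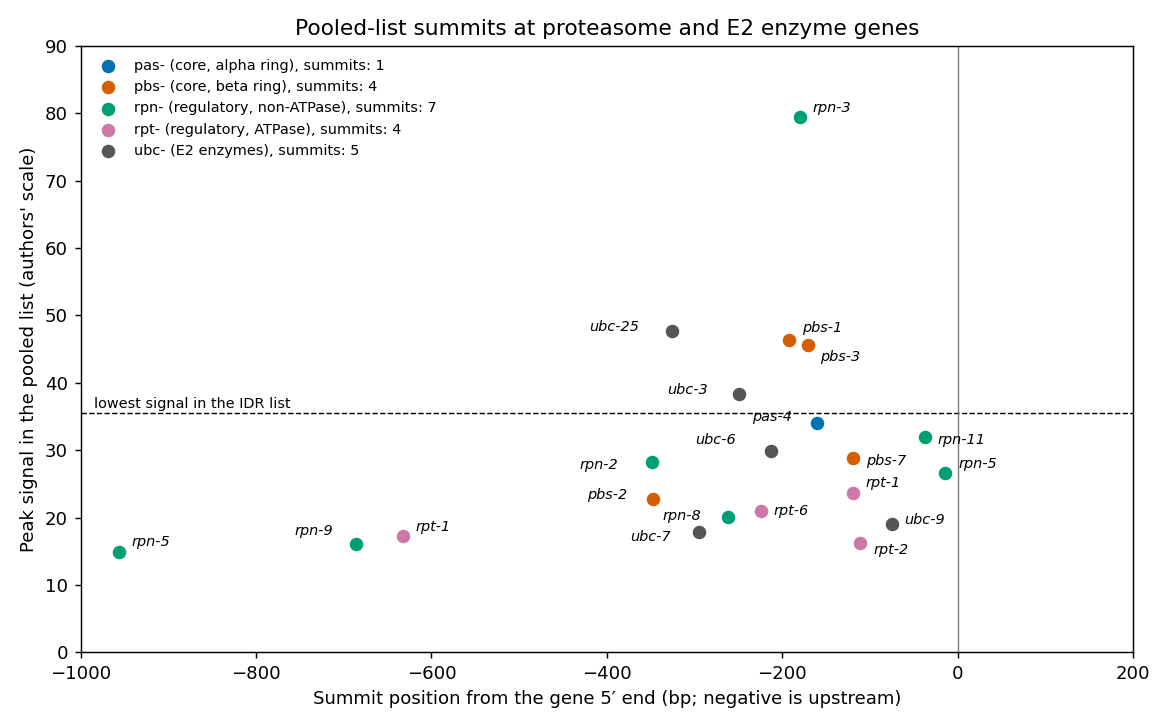
The 21 pooled-list summits in the promoter windows of 19 members, by position from the gene 5′ end in bp (x axis) and peak signal on the authors' scale (y axis), coloured by symbol class. The dashed line is the lowest signal in the IDR list, 35.5. The farthest summits, of rpn-5, rpn-9 and rpt-1, lie at -956, -686 and -633 bp, no other lies beyond -349 bp, and rpn-3 at 79.4 stands above the rest.

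Most members with a pooled summit had their strongest one in the middle ranks of the pooled list. Only rpn-3 (1.85% of the 54) had its strongest summit among ranks 1 to 601, and the other genes had 1.83% there. Ranks 602 to 1202 held the strongest summit of 4 members (7.41%) and of 1.60% of the other genes, and ranks 1203 to 2404 that of 6 members (11.1%) and of 2.97% of the other genes. Ranks 2405 to 4808 held 5 members (9.26%, against 4.52%), and the lowest ranks, from 4809 on, held 3 members (5.56%, against 6.89%). The share of members was therefore close to that of other genes in the first bin, above it in the 3 middle bins and below it in the last. The bins differ in width and hold 1 to 6 members each, so this pattern rests on few genes. The median signal of the members' 21 pooled summits was 26.6, and that of the other 3128 promoter summits was 20.2.

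**Figure D4:**
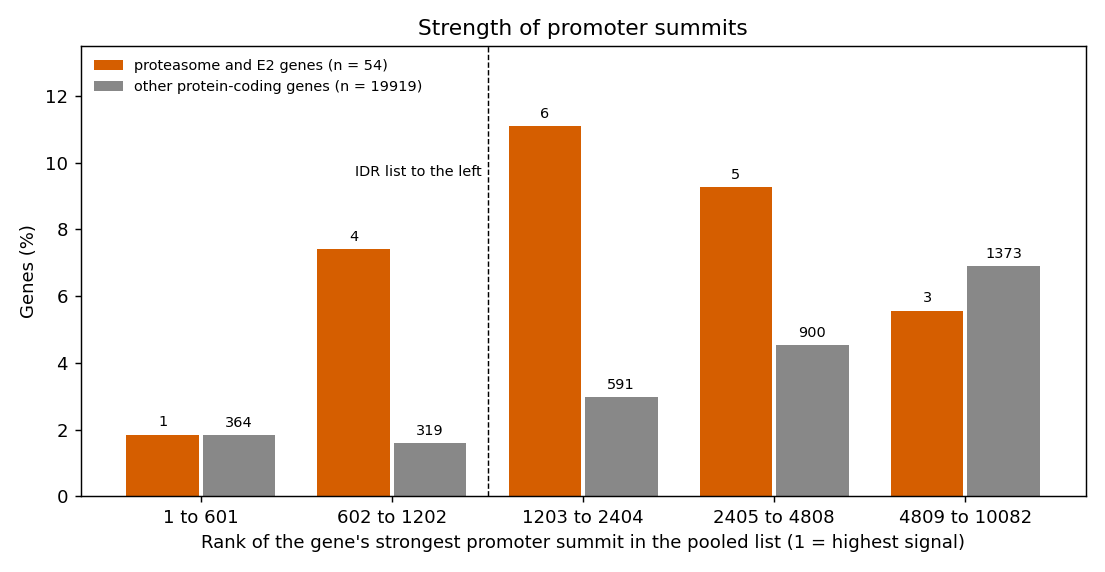
Percent of genes (y axis) by the rank of their strongest promoter summit in the pooled list (x axis, rank 1 is the highest signal), with orange bars for the 54 members, grey bars for the 19919 other protein-coding genes and gene counts above the bars. The dashed line ends the IDR list. The orange bars exceed the grey ones in the 3 middle bins, and the bars of the first bin are nearly equal, at 1.85% and 1.83%.

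Many of these promoters are shared with a gene on the other strand. Of the 21 pooled member summits 11 also lay in the window of another protein-coding gene (52.4%, interval 29.8 to 74.3), against 19.9% of the other promoter summits, and in all 11 the partner was on the opposite strand. In the IDR list it was 2 of 5, rpn-3 and pbs-1, against 28.8% of the others. Of the 54 members 28 (51.9%) had as their nearest upstream neighbour a gene on the opposite strand no more than 1000 bp away, against 17.1% of the other genes. A summit in such a shared region cannot be assigned to one gene of the pair from these lists.

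Within genes of this divergent arrangement, the members' share with an IDR summit was close to that of the other genes, 2 of 28 (7.14%) against 240 of 3407 (7.04%). With the pooled list it was 11 of 28 (39.3%) against 27.9%. Where the upstream neighbour was on the same strand within 1000 bp, 1 of 15 members (6.67%, pbs-3) had an IDR summit, against 2.26% of other genes, and 5 of 15 (33.3%) had a pooled summit, against 15.3%. The shares of other genes, weighted to the members' own arrangements, gave 2.61 bound genes in the IDR list and 11.8 in the pooled list. The observed 5 and 19 were 1.91 and 1.61 times these numbers, lower than the unweighted ratios of 2.70 and 1.98. This weighting was added after the data had been seen.

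**Figure D5:**
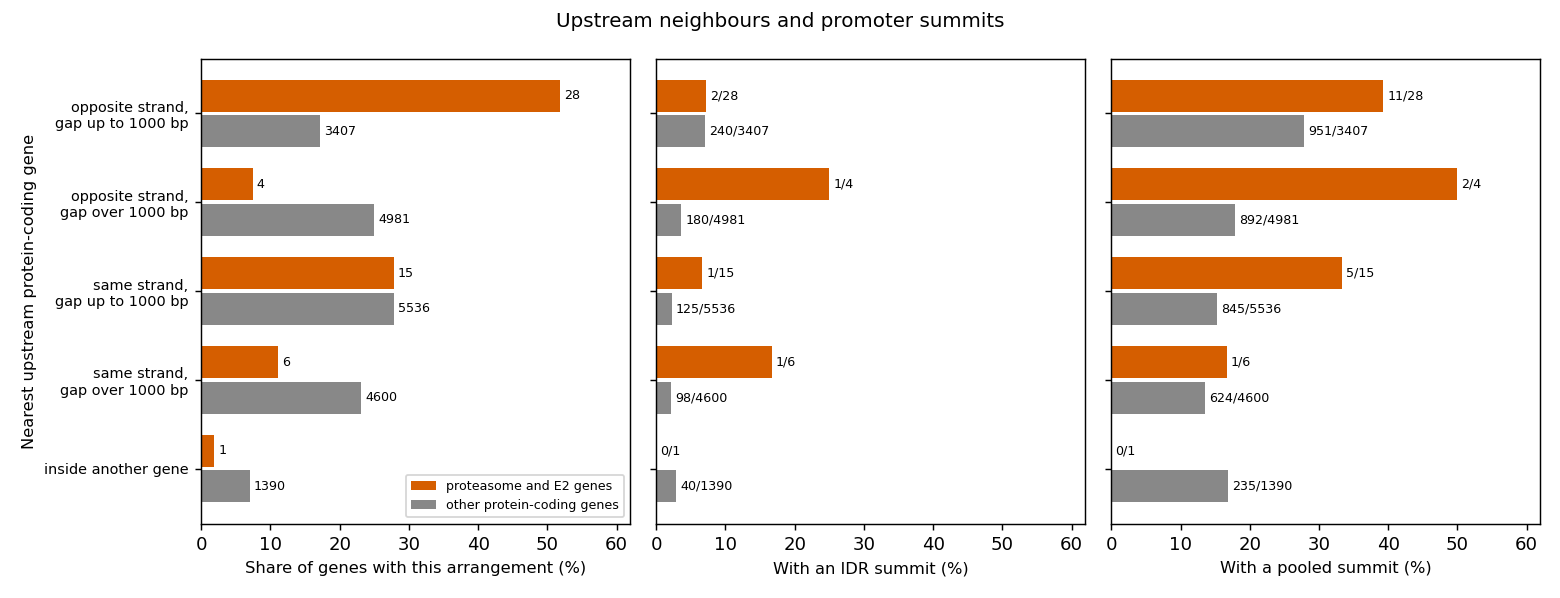
Left, percent of genes by the strand and distance of the nearest upstream protein-coding gene; middle and right, percent of the genes of each arrangement with an IDR or a pooled promoter summit. Orange bars are the proteasome and ubiquitin-conjugating enzyme genes (E2), grey bars the other protein-coding genes, and counts stand beside the bars. Divergent neighbours within 1000 bp make up 51.9% of the members and 17.1% of the others, while the IDR shares within that arrangement are 7.14% and 7.04%.

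The other 35 members had no pooled summit in the window. Among the alpha ring genes these were pas-1, pas-2, pas-3, pas-5, pas-6 and pas-7, and among the beta ring genes pbs-4, pbs-5 and pbs-6. The rpn- genes without one were rpn-1, rpn-6.1, rpn-6.2, rpn-7, rpn-10, rpn-12 and rpn-13, of which rpn-10 and rpn-13 encode ubiquitin receptors, and the rpt- genes were rpt-3, rpt-4 and rpt-5. The ubc- genes were ubc-1, ubc-8, ubc-12 to ubc-24 and ubc-26, among them ubc-12, the conjugating enzyme of the ubiquitin-like modifier NEDD8, and ubc-13, which builds ubiquitin chains of the lysine-63 type. ubc-21 and ubc-22, a divergent pair of members 462 bp apart on X, had no summit of either list between them.

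Over all members the median distance from the 5′ end to the nearest IDR summit was 39748 bp, against 36078 bp for the other genes. Near distances were nonetheless more frequent among the members: 14.8% had an IDR summit within 3000 bp, against 7.65% of the other genes. Within 5000 bp it was 20.4%, against 11.3%, and within 10000 bp 24.1%, against 19.6%. Each of these shares includes the 5 bound genes, which are most of the 8 members within 3000 bp. They are therefore no finding separate from the share of bound genes. To the nearest pooled summit the median was 1912 bp, against 3759 bp.

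In 3 members an IDR summit lay outside the window but within 3000 bp. That of pas-5 was 1118 bp upstream (signal 37.6), in the promoter window of no protein-coding gene. pas-5 lies next to ubc-25 on the same strand, 1446 bp downstream of its end. Those of pbs-2 and rpt-1 lay 1372 and 2320 bp downstream of the 5′ end, with signals of 86.4 and 86.5, in the promoter windows of the tubulin gene tba-2 and of snr-4, which encodes a core protein of the splicing particles. Both are stronger than any peak in a member's own window, and neither lies in the window of a proteasome gene.

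In replicate 1, all 19 members with a pooled summit also had a promoter summit, and in its list 20 members were called (37.0%, against 18.7% of all protein-coding genes). The addition was ubc-18 (rank 9061 of 10775). Taking the 1202 strongest peaks of replicate 1, 6 members were bound, the same 5 and pas-4, against 3.45% of all protein-coding genes. The pooled list was made from alignments that include those of replicate 1, and the IDR peaks are its strongest. Agreement of replicate 1 with these lists is therefore no independent support.

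In replicate 2, 2 members had a promoter summit (3.70%, interval 0.452 to 12.7, against 5.30% of all protein-coding genes), both weak and far upstream. They were rpn-11 at 950 bp (signal 2.02, rank 4020 of 4080) and rpn-6.1 at 754 bp (signal 2.09, rank 3713), on that list's own scale. The pooled summit of rpn-11 lies elsewhere, at -37 bp, and rpn-6.1 has none. No replicate 2 peak overlapped any of the 5 IDR peaks of the members, and 50 of the 525 other promoter peaks were overlapped (9.52%). Among the members' pooled peaks, 1 of 21 was overlapped, that of rpn-9. Its summit lay 686 bp upstream of rpn-9 but 8 bp downstream of the 5′ end of T06D8.9, in an exon of that gene. None of the 54 was bound in the 1202 strongest peaks of replicate 2 (interval up to 6.60%), against 1.55% of all genes. Each of the 5 IDR peaks of the members overlapped a replicate 1 peak, with replicate 1 signals from 39.5 to 79.9. That overlap is not independent either, since replicate 1 is part of the pooled alignments. The cause of the difference between replicates was not tested.

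Other genes of the ubiquitin system were taken from 4 lists with 88 matched genes in all. The lists were written with earlier results of these data known and are no independent evidence. Of the 88, 7 had an IDR summit (7.95%, against 3.44% of all protein-coding genes) and 25 a pooled summit (28.4%, against 17.9%). Among 20 proteasome regulators and genes of the SKN-1A pathway, 3 were bound. cdc-48.1, the ATPase that extracts ubiquitinated proteins, had a signal of 204 at rank 2. wdr-23, a repressor of SKN-1, had a signal of 125, and the shuttle factor gene ubql-1 one of 117 at a place shared with pdi-3. Each of these is stronger than any peak of a proteasome subunit gene.

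Of 28 ligase genes 3 were bound, wwp-1 (signal 134), zyg-11 (41.6) and eel-1 (38.9), and of 14 ubiquitin and activating enzyme genes 1, ubl-1 (54.2), a gene that encodes a ubiquitin-like fusion protein. Of 26 genes of deubiquitinating enzymes and the COP9 signalosome 0 were bound and 3 had a pooled summit (11.5%). The shares over all protein-coding genes were 3.44% bound and 17.9% with a pooled summit. None of the 7 IDR summits had a GATA word within 50 bp, against 28.6% of the promoter summits outside the 54 genes.

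Ribosomal protein genes, another group that encodes large complexes, were bound at other shares. Cytosolic ribosomal protein genes were bound at 44 of 78 (56.4%, interval 44.7 to 67.6), above the members' interval, and mitochondrial ones at 3 of 70 (4.29%), a share within the members' interval of 3.08 to 20.3. In the pooled list the shares were 70.5% for cytosolic and 28.6% for mitochondrial ribosomal protein genes, against the members' 35.2%.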

How the data were processed

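The peak lists were used as deposited by the authors, in narrowPeak layout for ce11. Per the deposited file records, 1 list came from replicate 1, 1 (listed only with the 2 libraries of replicate 2) from replicate 2, 1 from the pooled alignments, and the IDR list from these 3. The signal of each peak and the −log10 q-value of each peak were deposited by the authors; q-values are printed after conversion to a linear scale. For alignment and peak calling, the tool is not given in the sources used here. Lists for ce10 were not used.

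Genes came from Ensembl release 115 (WBcel235, the same assembly as ce11), and 0 peaks reached past a chromosome end. RefSeq gave the same 5′ end for 50 of the 54 members. Summits were assigned to genes, motifs were counted and shares were computed in Python 3.11.15 with pandas 2.3.3, numpy 2.4.6 and scipy 1.17.1, and the assignment and motif code was tested on simulated data. Replicate peaks counted as overlapping with at least 1 shared bp. No test was run, since there is 1 group and the members and lists were chosen with earlier results of these data known. Named genes were every member with an IDR summit, the 12 further members with the strongest pooled summits, and members with an IDR summit within 3000 bp. Members without a summit, the genes that share an IDR summit and the listed pathway genes with an IDR summit are also named. Values of rpn-9, rpt-2, ubc-18 and rpn-6.1, and the genes that share a pooled-only summit, were named after their values were seen. Upstream neighbours are protein-coding genes. Alternatives changed the window, the 5′ ends, the assignment, the list, the motif and the replicate.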

Additional observations from a re-analysis of the deposited data

How the results depend on the processing

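Over the alternatives that kept both replicates, the ratio of shares ran from 1.01 to 3.57 for the IDR list and from 1.34 to 3.52 for the pooled list. Splitting the group gave 3 proteasome and 2 ubc- genes with an IDR summit, and 5 ubc- genes with a pooled one. The upper part of the IDR list, ranks 1 to 601, held 1 member, rpn-3, and the ratio there was 1.01. The excess over other genes in the IDR list thus lies in its weaker ranks, where it rests on 4 members. A q-value of 0.05 or less in the pooled list gave 10 members and a ratio of 3.52. Neither the IDR list nor the pooled list was remade without a replicate, and the list of the other replicate stood in for it. In place of the IDR list, the 1202 strongest peaks of replicate 2 gave 0 members and those of replicate 1 gave 6. The ratios were 0 and 3.24. In place of the pooled list, the 4080 peaks of replicate 2 gave 2 members and the 10775 of replicate 1 gave 20. The ratios were 0.699 and 1.98. The low ends all rest on the lists of replicate 2 alone. There the members' shares were 0% (interval up to 6.60) and 3.70% (interval 0.452 to 12.7). The other genes had 1.56% and 5.30%, shares that lie within these intervals. A GATA match was found at 1 of the 5 IDR peaks within 100 bp, over the whole peak, or with GATA alone as the word. The shorter window, peak midpoints, the nearest 5′ end and the 5′ ends of all transcripts kept the 5 genes, and the window out to 2000 bp upstream added pas-5. Ratios below 1 occurred only with the lists of replicate 2. With 54 genes the intervals are wide, and depth is unknown.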
